A study of Homo sapiens with 12 samples.

Results

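The genes described here are 29 human genes that make cholesterol, control its synthesis, move it inside the cell or export it. They were chosen by name as sterol synthesis, SREBP control and LXR target genes, and not by a threshold on their values, although earlier results of these data were known when they were chosen. Of 34318 genes with a matched transcript in the deposited table, all 29 were found. They comprise 7 enzymes of the mevalonate steps, 12 enzymes that lead from squalene to cholesterol, 5 genes of SREBP control, 2 genes of intracellular transport and 3 targets of the liver X receptors (LXRs).

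Cells build cholesterol from acetyl-CoA through mevalonate, isoprenoid diphosphates, squalene and lanosterol. When sterols are scarce in the endoplasmic reticulum, the escort protein SCAP carries the SREBP transcription factors to the Golgi, where they are cleaved and released to switch on the synthesis and uptake genes. When sterols are plentiful, INSIG proteins hold SCAP back, and oxidised sterols activate LXRs, which switch on export of cholesterol and, through MYLIP, the loss of lipoprotein receptors.

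The study asked how RNA polymerase III (Pol III) relates to protein-coding genes, and measured mRNA in HEK293T cells, a transformed line from human embryonic kidney. POLR3A encodes the largest Pol III subunit. One pair of groups was transfected with a control siRNA or with siRNA targeting POLR3A and collected 2 days after knockdown; these are called siControl and siPOLR3A. The other pair was treated for 4 hours, either with the vehicle, 0.1% DMSO, or with the small-molecule Pol III inhibitor ML60218 at 25 µM. Each of the 4 groups held 3 libraries. The siRNA sequences and the serum content of the medium are not given in the sources used here.

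The 12 libraries held from 37008325 to 49479476 estimated reads. POLR3A itself fell from 90.8 ± 3.56 to 17.6 ± 2.65 CPM (counts scaled to the size of the library; mean ± SD, n = 3) after its siRNA (log2 fold change −2.36, SE 0.108, adjusted p 1.94e-05). All 8 HEK293 marker genes were detected in every library. Their summed level ranged from 1234 to 1259 CPM in siControl and from 789 to 808 CPM in siPOLR3A, and from 1063 to 1088 CPM in DMSO and 1129 to 1146 CPM in ML60218. The 8 markers did not move together. After the siRNA NEFM (log2 fold change −1.39), NEFL (−0.68), VIM (−0.52) and CDH2 (−0.20) were called lower in the edgeR test used below. INA (0.25) and KRT18 (0.14) were called higher, and KRT8 and PAX2 were not called. With ML60218 NEFL, NEFM and KRT8 were called higher and INA lower. The part of these marker shifts in the results below was not tested. The summed level of 6 markers of other cell types was 29.01 to 31.2 CPM in siControl, 36.0 to 38.4 in siPOLR3A, 28.3 to 29.8 in DMSO and 26.2 to 28.9 in ML60218, with COL1A1 making up most of it. The leukocyte marker PTPRC was at 0 in all 12 libraries, and PECAM1, ALB and DES stayed at or under 0.299 CPM. All values are from bulk RNA, in which fewer expressing cells and less RNA per cell cannot be told apart. Nothing in the labels says that the 3 libraries of a group came from separate cultures, so the p-values measure the spread between these libraries, which may be technical.

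Most of the 29 genes were well expressed. Their median level over the control libraries was 47.8 TPM, a level scaled for transcript length, against 13.1 for 15165 genes tested in both experiments, and lay at the 81.5th percentile. Their transcripts were of ordinary length and base content (medians 2833 bases and 50.1% GC, against 2987 bases and 48.8%). In siControl the highest on the TPM scale was FDPS (274 ± 4.15), the farnesyl diphosphate synthase that feeds both sterols and isoprenoids. SQLE (176 ± 2.01), the squalene epoxidase, LBR (173 ± 2.28) and INSIG1 (172 ± 11.2) followed, and these 3 did not differ beyond their spread. The lowest were MVK (9.92 ± 1.02), MYLIP (9.37 ± 0.279), ABCG1 (4.79 ± 0.374) and ABCA1 (1.81 ± 0.0592). On this scale the exporters ABCG1 and ABCA1 were the lowest of the 29. The coefficient of variation of a member within a group of 3 libraries had a median of 3.61% in siControl, 2.38% in siPOLR3A, 2.22% in DMSO and 3.61% in ML60218, and reached 13.3%.

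Promoter windows from RefSeq (GRCh38.p14, 250 bases before to 50 bases after a gene's start) were held for 25 of the 29 genes, in 31 windows. None was held for ACAT2, FDFT1, SQLE or the LXR target ABCG1. They were searched on both strands for short motifs tied to sterol control. The sterol response element TCACNCCAC, a form of the site SREBPs bind, occurred in 1 member window, that of SREBF2, and in 1.13% of all 35116 windows. CCAAT, the core of the site for NF-Y, a usual partner of SREBPs, occurred in 61.3% of the member windows and 34.6% of all windows. GGGCGG, the GC box, occurred in 90.3% and 45.0%, and it can overlap other GC-rich motifs. The LXR element, a repeat of AGGTCA with 4 bases between, and the Pol III B box occurred in 0 member windows, and in 0.0199% and 0.185% of all windows. The exact LXR pattern was held by 7 of the 35116 windows. Patterns this rare could hardly occur in 31 windows, so the 0 says nothing about these genes. A match describes letters only, and none of these counts was tested.

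The promoters of SREBF2, of EBP, which fell most after the siRNA, and of MYLIP, which rose most, are shown because they hold the sterol element and the CCAAT matches. They lie at chr22:41832855-41833154, chrX:48521558-48521857 and chr6:16128836-16129135, all on the plus strand of GRCh38.p14 and written 5′ to 3′. Capitals mark the sterol response element in SREBF2 and CCAAT, or its reverse complement ATTGG, in EBP with 3 matches and MYLIP with 2.
SREBF2: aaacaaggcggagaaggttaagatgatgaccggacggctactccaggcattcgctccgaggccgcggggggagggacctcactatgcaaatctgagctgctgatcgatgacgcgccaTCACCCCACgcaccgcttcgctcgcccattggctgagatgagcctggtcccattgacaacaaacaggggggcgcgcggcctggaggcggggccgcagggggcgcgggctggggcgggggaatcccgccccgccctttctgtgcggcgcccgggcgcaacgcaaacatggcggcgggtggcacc
EBP: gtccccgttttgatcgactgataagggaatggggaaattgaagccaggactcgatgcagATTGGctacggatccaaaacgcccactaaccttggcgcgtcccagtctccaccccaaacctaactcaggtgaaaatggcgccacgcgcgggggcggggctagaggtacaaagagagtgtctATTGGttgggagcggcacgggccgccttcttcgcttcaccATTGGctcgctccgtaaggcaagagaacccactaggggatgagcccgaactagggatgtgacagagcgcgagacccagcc
MYLIP: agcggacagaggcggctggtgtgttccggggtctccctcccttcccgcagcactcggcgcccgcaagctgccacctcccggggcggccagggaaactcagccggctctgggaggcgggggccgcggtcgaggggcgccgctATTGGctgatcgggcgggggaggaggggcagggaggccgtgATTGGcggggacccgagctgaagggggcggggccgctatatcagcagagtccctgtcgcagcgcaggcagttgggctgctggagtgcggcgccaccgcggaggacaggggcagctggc

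The first comparison asked what happened to these genes 2 days after the POLR3A siRNA. Of the 29 genes, 11 rose and 12 fell, and 6 were not called, in edgeR's quasi-likelihood test with Benjamini-Hochberg adjustment over all 15404 genes tested (called at an adjusted p under 0.05). The same test called 56.6% of all genes, 27.4% higher and 29.2% lower, so a call was common. The members' median log2 fold change was −0.03, against 0.01 for all genes, and their median absolute change 0.27, against 0.23. The pathway did not move as 1 block: EBP fell by 49.9% and ABCG1, PMVK, NPC1 and STARD4 by between 29.3% and 41.7%, while MYLIP, SCAP and MSMO1 rose by 31.0 to 64.1%. In 25 of the 29 genes the siPOLR3A and siControl libraries did not overlap, against 63.4% of all genes.

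**Figure D1:**
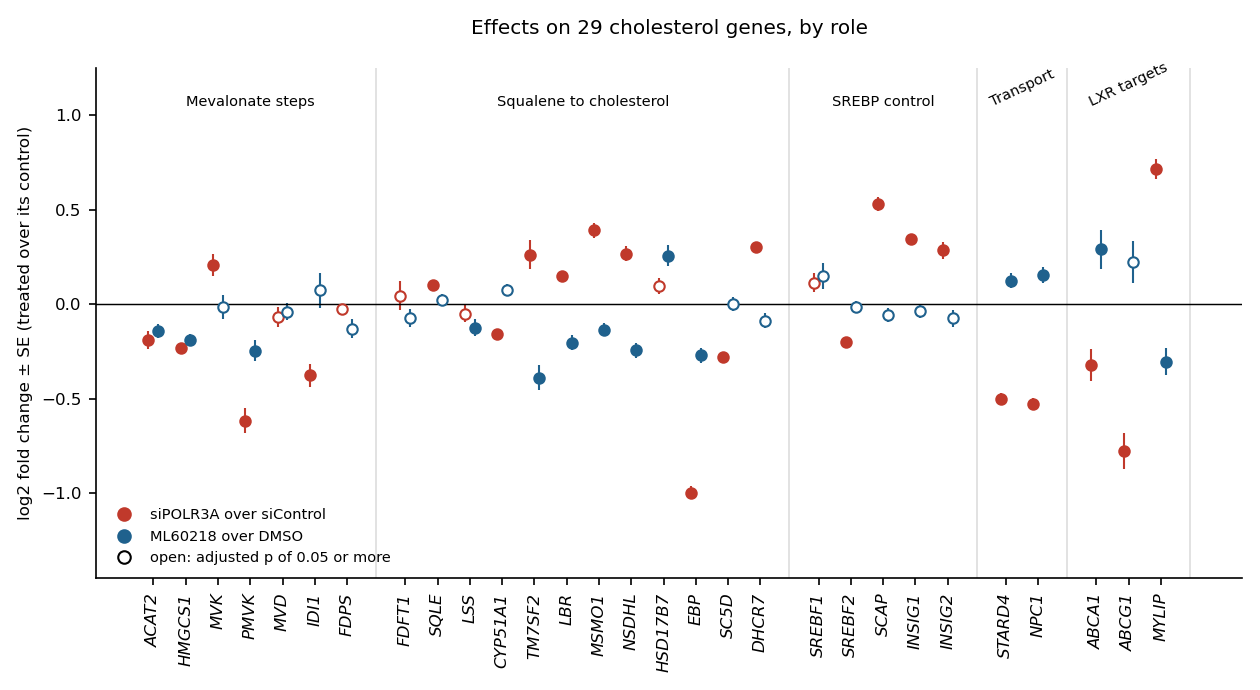
Log2 fold change ± SE of each of the 29 genes (y axis), ordered by role (x axis), for siPOLR3A over siControl (red) and ML60218 over DMSO (blue), n = 3 libraries per group; open points have an adjusted p of 0.05 or more. EBP (−0.998) and MYLIP (0.71) mark the ends of the siRNA changes, and every ML60218 change lies between −0.39 and 0.29.

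Among the mevalonate enzymes, 4 of 7 fell, 1 rose and 2 were not called. PMVK (chromosome 1, 154924734 to 154936991, minus strand), which phosphorylates mevalonate phosphate, was at 17.0, 19.5 and 18.4 CPM in siControl and at 11.8, 11.3 and 12.7 CPM in siPOLR3A. All 3 siPOLR3A libraries lay below all 3 controls (log2 fold change −0.62, SE 0.0677, adjusted p 2.80e-06). IDI1, the isomerase that interconverts the isoprenoid units, was at 59.0, 62.7 and 64.5 CPM in siControl and 43.4, 50.8 and 49.4 CPM in siPOLR3A. Its groups did not overlap either (log2 fold change −0.38, SE 0.0610, adjusted p 0.000826). An unmatched transcript next to IDI1, of unknown type, carried 62.6 to 70.9% of the reads of the locus. With it included the change was −0.27 and stayed called (adjusted p 4.66e-07 in the same edgeR test). Of the matched reads, IDI1-205, a form not annotated as coding, held 54.0 ± 5.30% in siControl and 48.9 ± 1.71% in siPOLR3A (mean ± SD). The matched coding form IDI1-201 held 477, 835 and 788 estimated reads in siControl and 571, 657 and 503 in siPOLR3A. Those reads, not scaled to the library, overlapped, so the fall was not shown for this matched coding form. ACAT2 and HMGCS1, which join acetyl units at the start of the pathway, changed by −0.19 and −0.23 on the log2 scale, both called lower. MVK, the mevalonate kinase, rose by 0.21 (SE 0.0572, adjusted p 0.00659). Its call was lost in DESeq2 (adjusted p 0.0674) and after removal of a GC and length trend (0.311, range over its alternatives 0.00130 to 0.311). FDPS (−0.03) and MVD (−0.07), the decarboxylase before IDI1, were not called. After removal of the GC and length trend MVD stood at −0.27 and was called (adjusted p 0.000610).

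Of the 12 enzymes from squalene to cholesterol, 6 rose, 3 fell and 3 were not called. EBP, the sterol isomerase known as the emopamil-binding protein (ENSG00000147155, chromosome X, 48521158 to 48528716, plus strand; coordinates here and below are GENCODE 29 gene spans on GRCh38), had the largest change of all 29. It was at 70.2, 71.1 and 74.4 CPM in siControl and at 36.2, 35.5 and 36.3 CPM in siPOLR3A. The siPOLR3A libraries lay within 1 CPM of each other and far below every control (log2 fold change −0.998, SE 0.0345, adjusted p 1.83e-11).

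The rises were smaller and lay at several steps. MSMO1 is the oxidase that starts removal of the methyl groups at carbon 4 of the sterol ring. It was at 122, 121 and 134 CPM in siControl and 166, 167 and 160.4 CPM in siPOLR3A. The groups did not overlap (log2 fold change 0.39, SE 0.0382, adjusted p 4.14e-06). NSDHL, the dehydrogenase of the same demethylation, rose by 0.27 (SE 0.0394, adjusted p 4.94e-05), and HSD17B7, the ketoreductase that completes it, was not called (0.09, adjusted p 0.0752). HSD17B7 was called higher under 4 of 16 alternatives, at 0.10 to 0.16. DHCR7, the reductase of the final step to cholesterol, was at 88.7, 92.2 and 89.97 CPM in siControl and 111, 111 and 112 CPM in siPOLR3A. Every siPOLR3A library was above every control (log2 fold change 0.30, SE 0.0270, adjusted p 3.51e-07).

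TM7SF2 and LBR encode sterol reductases for the same step, LBR being also a lamin B receptor of the nuclear envelope. TM7SF2 (chromosome 11, 65111845 to 65116384, plus strand) was at 15.7, 13.6 and 17.0 CPM in siControl and 19.2, 17.5 and 18.7 CPM in siPOLR3A. Its groups lay close but did not overlap (log2 fold change 0.26, SE 0.0761, adjusted p 0.0106). After removal of a GC and length trend, TM7SF2 stood at 0.11 and lost its call (adjusted p 0.227, range over its alternatives 0.000843 to 0.227). LBR rose by 0.15 and SQLE by 0.10 on the log2 scale, and with the trend removed they stood at 0.22 and 0.15, both called. SC5D, the desaturase that acts just before DHCR7, fell by 0.28 and CYP51A1, the cytochrome P450 that demethylates lanosterol, fell by 0.16. The fall of CYP51A1 was −0.10 with upper quartile scaling and with the trend removed, where it stayed called, and SQLE stood at 0.16 with that scaling. FDFT1 (0.04), the squalene synthase, and LSS (−0.05), the lanosterol synthase, were not called. LSS was called at −0.17 with the trend removed (adjusted p 0.00295), and FDFT1 at 0.15 without siControl replicate 3 (adjusted p 0.0227). EBP, SC5D and DHCR7 act one after another, and EBP and SC5D fell while DHCR7 rose.

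In SREBP control, 3 of 5 genes rose and 1 fell. SCAP (chromosome 3, 47413694 to 47477126, minus strand) was at 47.8, 47.8 and 46.9 CPM in siControl and 72.0, 66.8 and 66.6 CPM in siPOLR3A. The 3 controls lay within 1 CPM of each other and all siPOLR3A libraries were higher (log2 fold change 0.53, SE 0.0366, adjusted p 2.51e-08). INSIG1, itself a classic SREBP target, was at 305, 289 and 310.3 CPM in siControl and 390.2, 383 and 375 CPM in siPOLR3A. Its groups did not overlap (log2 fold change 0.34, SE 0.0281, adjusted p 1.36e-07). INSIG2 rose by 0.28 (SE 0.0457), so the mRNAs of the escort and of both its anchors were higher. Their proteins were not measured. SREBF2, which encodes the SREBP that mainly serves cholesterol genes, fell by 0.20 (SE 0.0247, adjusted p 9.08e-06). SREBF1, whose products mainly serve fatty acid genes, was not called (0.11, adjusted p 0.0587), but was called higher under 4 of 16 alternatives, at 0.12 to 0.17, and stood at −0.08 with the GC and length trend removed.

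Both transport genes fell. NPC1 (chromosome 18, 23506184 to 23586898, minus strand), which moves lipoprotein-derived cholesterol out of lysosomes, was at 98.8, 95.6 and 97.8 CPM in siControl and 68.9, 65.7 and 67.9 CPM in siPOLR3A. STARD4 (chromosome 5, 111496033 to 111512590, minus strand), a soluble sterol carrier, was at 85.8, 82.2 and 85.8 CPM in siControl and 58.8, 60.7 and 60.0 CPM in siPOLR3A. For each gene every siPOLR3A library lay below every control (NPC1 log2 fold change −0.53, SE 0.0296, adjusted p 2.59e-09). For STARD4 the values were: log2 fold change −0.50, SE 0.0309, adjusted p 7.29e-09. With an offset for isoform length, the fall of NPC1 was −0.27 and stayed called.

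All 3 LXR targets were called, in both directions. ABCG1 (chromosome 21, 42199689 to 42297244, plus strand), which exports cholesterol to high-density lipoprotein, was at 10.5, 11.1 and 9.82 CPM in siControl and 6.37, 6.71 and 5.21 CPM in siPOLR3A. ABCA1, which loads cholesterol onto lipid-poor apolipoprotein, was at 14.9, 16.6 and 16.2 CPM in siControl and 11.0, 13.2 and 13.95 CPM in siPOLR3A. Both exporters were lower in every siPOLR3A library than in any control (ABCG1 log2 fold change −0.78, SE 0.0958, adjusted p 8.63e-06). The change of ABCA1 was smaller: log2 fold change −0.32, SE 0.0841, adjusted p 0.00574. MYLIP (chromosome 6, 16129125 to 16148248, plus strand), the ubiquitin ligase that marks lipoprotein receptors for breakdown, was at 19.8, 21.1 and 21.7 CPM in siControl and 36.5, 33.8 and 32.5 CPM in siPOLR3A. It was the largest rise among the 29, with no overlap between the groups (log2 fold change 0.71, SE 0.0550, adjusted p 7.34e-08).

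**Figure D2:**
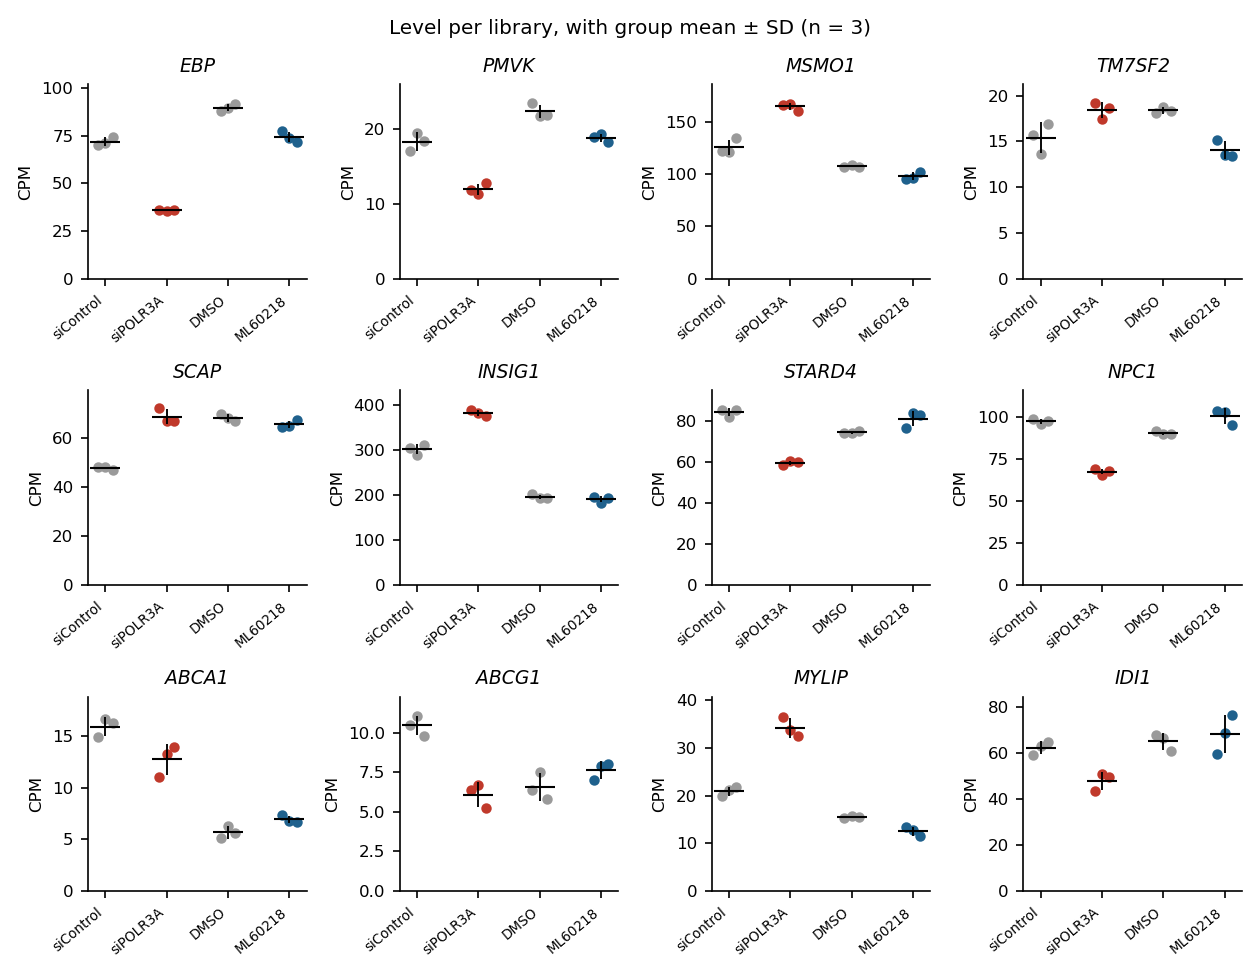
Level of 12 of the genes in each library, in CPM on a linear axis from 0 (y axis), by group (x axis); points are libraries, horizontal bars group means and vertical bars SD, n = 3. EBP stands at 35.5 to 36.3 CPM in siPOLR3A against 70.2 to 74.4 in siControl, while the ML60218 and DMSO libraries of most genes lie closer together.

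The 6-base sequence GAGGGA had been linked to falls after this siRNA in an earlier look at these data, so its place in the members is a description only. A 3′ UTR was annotated for 27 of the 29 genes in the protein-coding transcript with most reads, FDPS and MVK having none. GAGGGA occurred in 6 of the 27 (22.2%), against 34.8% of 13905 genes. It was present in 4 of the 12 members that fell (33.3%; 43.3% of all genes that fell), in 1 of 10 that rose (30.5% of all that rose) and in 1 of 5 not called (31.3%). These classes also differed in median 3′ UTR length, with 1324, 1039 and 894 bases over all genes and 1200, 787 and 590 in the members. The shares were not adjusted for length. GACGTA, the second sequence counted there, occurred in 0 of 27 members and in 3.93% of all genes. EBP, ABCG1, NPC1 and HMGCS1 were the members that fell and held GAGGGA in the 3′ UTR. PMVK, STARD4, IDI1, ABCA1, SC5D, SREBF2, ACAT2 and CYP51A1 fell without it there. The part of GAGGGA in the changes was not tested.

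Each of the 6 genes held 1 copy in this 3′ UTR, which is shown with 12 bases before and after it, so that the contexts can be compared. The rest of the transcript held further copies, not shown, in ABCG1 (2), NPC1 (1) and HMGCS1 (1). They are written 5′ to 3′ on the transcribed strand of GRCh38, with GAGGGA in capitals, and lie at chrX:48528528-48528557, plus strand (EBP), chr21:42297078-42297107, plus strand (ABCG1), chr18:23531562-23531591, minus strand (NPC1), chr5:43290299-43290328, minus strand (HMGCS1), chr7:155309711-155309740, plus strand (INSIG1) and chr21:46190633-46190662, minus strand (LSS).
EBP: tcccacagtttgGAGGGAcaaagctaattg
ABCG1: aggttccaggtgGAGGGAagacgtggacac
NPC1: gtggcatgaaatGAGGGAcaaagaaagcat
HMGCS1: ggaggtgtggatGAGGGAgtttgttgttgc
INSIG1: ttgctttgttttGAGGGAaatgtcttggag
LSS: gtctgctgggctGAGGGAcacgagggcaac
The longest run shared by any pair was GAGGGACAAAG, 11 bases, in EBP and NPC1.

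The second comparison asked what 4 hours of ML60218 did to the same genes. Of the 29, 10 fell, 4 rose and 15 were not called in edgeR's quasi-likelihood test with Benjamini-Hochberg adjustment, where 39% of 15461 genes were called, 18.1% higher and 20.9% lower. Groups did not overlap in 18 of the 29, against 51.9% of all genes. The median log2 fold change was −0.06, against 0.01 for all genes, and the median absolute change 0.13, against 0.17. Of the 19 synthesis enzymes 9 fell and 1 rose, no gene of SREBP control was called, and both transport genes rose. With total counts as the scaling, 7 fell and 6 rose, and with the isoform length offset 10 fell and 1 rose. The count of 14 lay between 9 and 14 when 1 library was left out, with 9 without DMSO replicate 2.

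TM7SF2 had the largest fall. It was at 18.1, 18.8 and 18.4 CPM in DMSO and 15.2, 13.5 and 13.4 CPM in ML60218. Every treated library lay below every control (log2 fold change −0.39, SE 0.0660, adjusted p 0.00163). LBR, which encodes the other reductase of that step, fell by 0.20 (SE 0.0393, adjusted p 0.00310), and with total counts as the scaling its change was −0.13, still called. EBP was at 87.8, 89.7 and 91.4 CPM in DMSO and 77.3, 73.7 and 71.9 CPM in ML60218. Its groups did not overlap (log2 fold change −0.27, SE 0.0392, adjusted p 0.000804). NSDHL fell by 0.25 (SE 0.0378, adjusted p 0.00108), and MSMO1, at 107, 109 and 107 CPM in DMSO and 95.6, 96.5 and 102 CPM in ML60218, fell by 0.14 (adjusted p 0.0146). HSD17B7, of the same demethylation, went the other way, from 25.5, 28.1 and 26.0 CPM in DMSO to 31.3, 30.8 and 32.9 CPM in ML60218. All its treated libraries were above all controls (log2 fold change 0.26, SE 0.0542, adjusted p 0.00497). DHCR7 was at 116, 109 and 108 CPM in DMSO and 102, 107 and 106 CPM in ML60218, and its small difference was not called (−0.09, adjusted p 0.102). LSS was called lower at −0.12 (adjusted p 0.0433), a call lost under 12 of 16 alternatives (range of adjusted p 0.0229 to 0.372). MSMO1 lost its call under upper quartile scaling (0.0606), with total counts (−0.06, adjusted p 0.270) and without DMSO replicate 2 (0.0654), its lowest value being 0.00200.

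Of the mevalonate enzymes, 3 of 7 fell and none rose. PMVK was at 23.4, 21.8 and 21.9 CPM in DMSO and 18.9, 19.4 and 18.3 CPM in ML60218. The groups did not overlap (log2 fold change −0.25, SE 0.0560, adjusted p 0.00686), but after removal of a GC and length trend the change was −0.13 and not called (adjusted p 0.0846, range over its alternatives 0.00355 to 0.0846). HMGCS1 fell by 0.19 (−0.12 with total counts, still called) and ACAT2 fell by 0.14 (adjusted p 0.0118). The call of ACAT2 was lost with total counts (−0.07, adjusted p 0.125), with the isoform length offset (0.0506) and without DMSO replicate 2 (0.0519), its lowest adjusted p being 0.00440. On the deposited TPM scale, which took no part in the test, neither mean was lower with ML60218. HMGCS1 stood at 131 ± 1.38 TPM in DMSO and 132 ± 10.9 in ML60218, and ACAT2 at 123 ± 3.27 and 125 ± 5.23. IDI1 was at 67.5, 66.5 and 60.5 CPM in DMSO and 59.4, 68.7 and 76.2 CPM in ML60218, with a coefficient of variation of 12.3% in ML60218, and was not called (0.07, adjusted p 0.579). MVK (−0.02), MVD (−0.04) and FDPS (−0.13) were not called either, though FDPS was under 5 of 16 alternatives (−0.17 to −0.13).

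None of the 5 genes of SREBP control was called with ML60218. SCAP was at 69.7, 67.8 and 66.5 CPM in DMSO and 64.2, 64.7 and 67.0 CPM in ML60218, with overlapping groups (−0.06, adjusted p 0.262). INSIG1 was at 201, 193 and 194 CPM in DMSO and 196, 183 and 194 CPM in ML60218, again overlapping (−0.04, adjusted p 0.437). INSIG2 (−0.08), SREBF2 (−0.02) and SREBF1 (0.15) had adjusted p-values from 0.119 to 0.735. At an unadjusted p under 0.05 edgeR gave 0 of the 5, and DESeq2 also called 0. SREBF1 was called under 4 of the 16 alternatives, with adjusted p from 0.0208 to 0.383.

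Both transport genes rose by small amounts. NPC1 was at 91.5, 89.9 and 89.9 CPM in DMSO and 104, 103 and 95.2 CPM in ML60218. STARD4 was at 74.2, 74.3 and 75.5 CPM in DMSO and 77.0, 84.0 and 83.1 CPM in ML60218. In each the treated libraries lay above the controls without overlap (NPC1 log2 fold change 0.15, SE 0.0402, adjusted p 0.0135). The values for STARD4 were: log2 fold change 0.12, SE 0.0413, adjusted p 0.0374. The call of NPC1 was lost without DMSO replicate 2 (adjusted p 0.0611), DMSO replicate 3 (0.0541) or ML60218 replicate 2 (0.0515) and with the isoform length offset (0.0555), over a range of 0.00162 to 0.0611. That of STARD4 was lost under 8 of 16 alternatives, with adjusted p from 0.00480 to 0.321, and stood at 0.20 with total counts and 0.08 with the isoform length offset.

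Among the LXR targets, MYLIP was at 15.3, 15.6 and 15.4 CPM in DMSO and 13.3, 12.8 and 11.5 CPM in ML60218. All treated libraries were lower (log2 fold change −0.30, SE 0.0700, adjusted p 0.00730). ABCA1 was at 5.06, 6.29 and 5.62 CPM in DMSO and 7.32, 6.80 and 6.64 CPM in ML60218. It was higher without overlap and just past the threshold (log2 fold change 0.29, SE 0.103, adjusted p 0.0485), and the call was lost under 11 of 16 alternatives (adjusted p 0.0198 to 0.322), with 0.15 when neighbouring transcripts were included or the GC and length trend was removed. ABCG1 was at 6.4, 7.51 and 5.78 CPM in DMSO and 6.99, 7.90 and 8.05 CPM in ML60218, with overlapping groups (0.22, adjusted p 0.145). ABCA1 was also lower in the DMSO group (5.65 ± 0.614 CPM) than in siControl (15.9 ± 0.923 CPM), a difference between experiments that was not tested.

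Setting the 2 comparisons side by side, which share no libraries, 12 of the 29 genes were called in both and 4 in neither (MVD, FDPS, FDFT1 and SREBF1). Of the 12, 8 moved in opposite directions and 4 in the same. Over 22 alternatives the count called in both ranged from 8 to 13, with 5 to 8 opposite and 3 to 5 in the same direction. It was 8 with the isoform length offset and without DMSO replicate 2. Each of the 4 called in neither was called in 1 comparison under at least 1 alternative, SREBF1 in both comparisons. Over all 15165 genes tested in both, 26.2% were called in both, 13.9% in opposite directions and 12.3% in the same. TM7SF2, LBR, MSMO1, NSDHL and MYLIP rose after the siRNA and fell with ML60218. For TM7SF2 the rise was in reads summed over its forms, and the reads of its main coding form overlapped between siControl and siPOLR3A. STARD4, NPC1 and ABCA1 did the reverse, though each of these 3 lost its ML60218 call under 4 or more alternatives. ACAT2, HMGCS1, PMVK and EBP fell in both, though on the TPM scale the ML60218 means of ACAT2 and HMGCS1 were not lower.

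**Figure D3:**
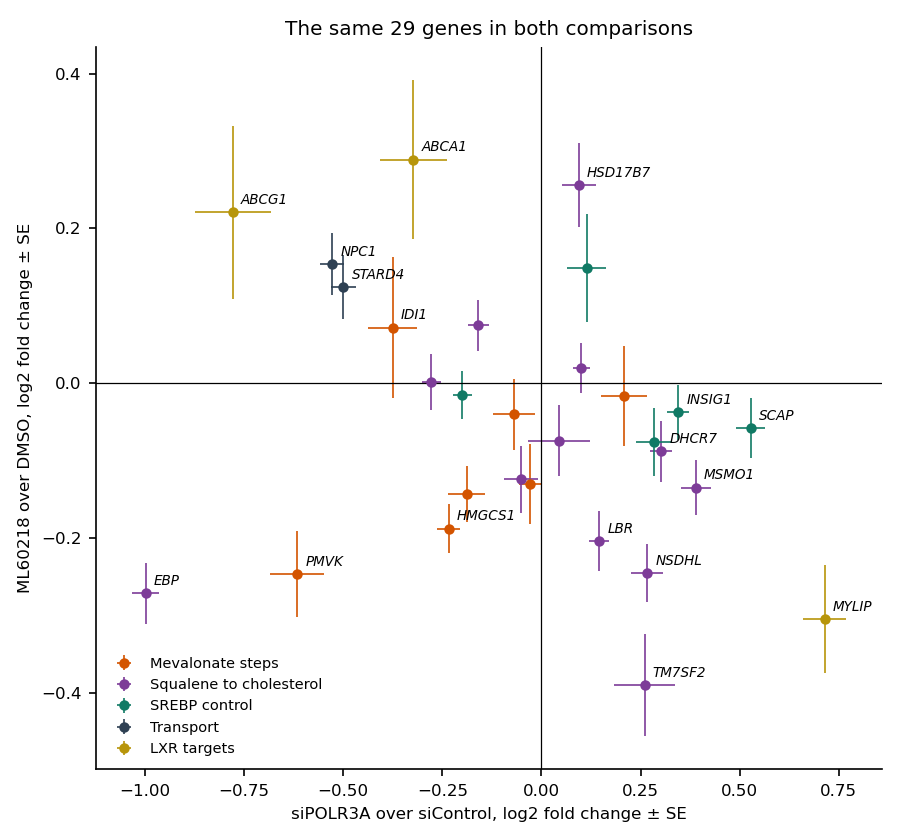
Log2 fold change ± SE of each of the 29 genes after the siRNA (x axis) and with ML60218 (y axis), coloured by role, n = 3 libraries per group. EBP and PMVK lie at the lower left, MYLIP and TM7SF2 at the lower right, and NPC1, STARD4, ABCA1 and ABCG1 at the upper left.

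The difference between the effects was tested itself, as the siRNA change minus the ML60218 change over all 12 libraries. It was called for 20 of the 29 genes, 10 in each direction, where 50.9% of 15780 genes were called, 24.5% positive and 26.4% negative. MYLIP differed most on the positive side (1.03, SE 0.0869, adjusted p 1.01e-07 in edgeR's quasi-likelihood test), before TM7SF2 (0.66), SCAP (0.59), MSMO1 (0.53) and NSDHL (0.52). With the GC and length trend removed this order changed, TM7SF2 standing at 0.42 and SCAP at 0.38, below MSMO1 (0.64) and NSDHL (0.55). ABCG1 differed most on the negative side (−0.99, SE 0.156, adjusted p 6.59e-05), before EBP (−0.72), NPC1 (−0.68), STARD4 (−0.62) and ABCA1 (−0.61). The difference for NPC1 was −0.39 with the isoform length offset and stayed called. EBP and PMVK fell in both experiments but further after the siRNA, with differences of −0.72 and −0.36 (PMVK −0.56 with the trend removed). The falls of ACAT2 and HMGCS1 were not called as different (−0.04 each, SE 0.0609 and 0.0458). The siRNA acted for 2 days and the compound for 4 hours, so time and kind of treatment cannot be told apart. The call for MVK (0.23) was lost under 7 of 22 alternatives, including without siControl replicate 3 (adjusted p 0.0626), siPOLR3A replicate 3 (0.0554), DMSO replicate 2 (0.0610) or ML60218 replicate 3 (0.0698), with a range of 0.0160 to 0.657.

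Some members changed in which transcript carried their reads. PMVK had a single matched transcript, and EBP-205 held 93.5 ± 0.426% of EBP reads in siControl and 92.6 ± 0.681% in siPOLR3A, so these falls lay in 1 transcript each. SC5D split between SC5D-202, which went from 50.1 ± 1.81% in siControl to 42.5 ± 2.46% in siPOLR3A, and the longer SC5D-201, which went from 38.0 ± 2.49% to 47.6 ± 0.568%. The offset for isoform length accordingly gave SC5D a fall of −0.43. The main form of NPC1, NPC1-201, went from 84.3 ± 1.04% to 78.5 ± 0.993%, and that of STARD4, STARD4-201, from 90.5 ± 0.498% to 84.5 ± 1.37%. In TM7SF2 the coding form TM7SF2-201 went from 59.0 ± 3.23% to 47.8 ± 2.94%, and TM7SF2-217, which retains an intron, from 12.7 ± 1.74% to 18.0 ± 0.458%. In estimated reads, not scaled to the library, TM7SF2-201 held 325, 272 and 389 in siControl and 329, 321 and 317 in siPOLR3A. Those groups overlapped, while TM7SF2-217 went from 59.7, 71.8 and 78.6 reads to 130, 116 and 118. With ML60218, SREBF1-203, a form marked for nonsense-mediated decay, went from 5.16 ± 0.487% in DMSO to 13.6 ± 2.03%. These shares (mean ± SD, n = 3) and reads are estimates and were not tested.

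Around the 29 genes, 50 further genes of the pathway were read from the same fits, and 48 could be tested. SOAT2 had counts at or near 0, and RXRB had 0 in all 12 libraries. Reads of unmatched transcripts were left out, so a 0 does not show that a gene was not expressed. After the siRNA 32 of the 48 were called, 20 higher and 12 lower, with a median of 0.04. With ML60218 23 were called, 6 higher and 17 lower, with a median of −0.05. Beside the background shares of 56.6% and 39%, the 29 members and these neighbours were called at 79.3% and 66.7% after the siRNA and at 48.3% and 47.9% with ML60218. The background was not matched for level, and the members lay at the 81.5th percentile. Median absolute changes were 0.27 and 0.20 after the siRNA, against 0.23 for all genes. With ML60218 they were 0.13 and 0.14, against 0.17. The part of level in these shares was not tested.

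**Figure D4:**
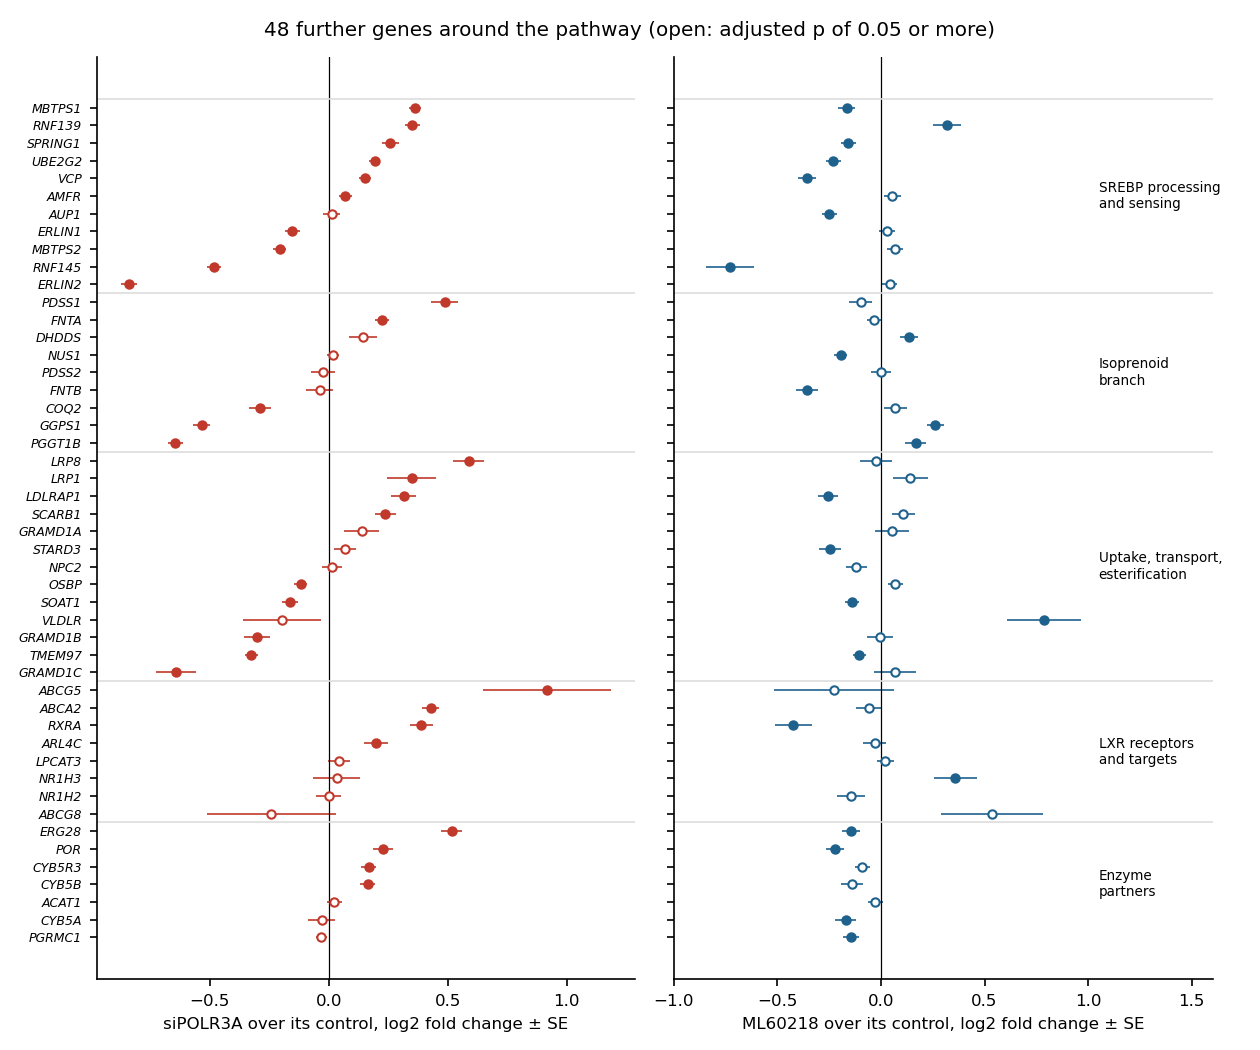
Log2 fold change ± SE (x axis) of 48 further genes (y axis), grouped by role, after the siRNA (left) and with ML60218 (right), n = 3 libraries per group; open points have an adjusted p of 0.05 or more. ERLIN2 (−0.84) and ABCG5 (0.92) are the ends of the left panel, and VLDLR (0.79) and RNF145 (−0.73) those of the right.

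After the siRNA, 10 of 11 genes of SREBP processing and sterol sensing were called, 6 higher and 4 lower. That is 90.9%, against 56.6% of all genes, while their median absolute change was 0.21, against 0.23. MBTPS1, the protease that makes the first cut in SREBPs, was called higher (0.36), and MBTPS2, which makes the second, lower (−0.21). The largest falls under the naming rule were in ERLIN2 (−0.84), an endoplasmic reticulum protein that takes part in degrading INSIG1, PGGT1B (−0.65), a subunit of a geranylgeranyl transferase, GRAMD1C (−0.64), of a family that carries sterol from the plasma membrane, GGPS1 (−0.53), which makes geranylgeranyl diphosphate, and RNF145 (−0.48), a sterol-sensing ubiquitin ligase. The largest rises were in ABCG5 (0.92, at 0.334 to 0.467 CPM in siControl), a sterol exporter, LRP8 (0.59), a lipoprotein receptor, ERG28 (0.52), a scaffold of the demethylation enzymes, PDSS1 (0.49), of ubiquinone synthesis, and ABCA2 (0.43), a lipid transporter. ERG28 rose after the siRNA, as did MSMO1 and NSDHL, which it tethers, and fell with ML60218 (−0.14), as they did. HSD17B7, of the same demethylation, was not called after the siRNA and rose with ML60218.

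With ML60218, VLDLR, a lipoprotein receptor, rose from 1.79, 2.60 and 1.97 CPM in DMSO to 4.39, 3.56 and 3.07 CPM (log2 fold change 0.79, SE 0.181, adjusted p 0.00725). RNF145 fell from 118, 117.2 and 114 CPM to 81.3, 70.6 and 58.9 CPM (log2 fold change −0.73, SE 0.115, adjusted p 0.00529). RNF145 also fell after the siRNA (−0.48), and the effects were not called as different (0.25, SE 0.125, adjusted p 0.123). RXRA, the partner of LXRs on DNA, rose after the siRNA (0.39) and fell with ML60218 (−0.42). Of 7 enzyme partners, such as the electron donor POR, 4 rose and none fell after the siRNA, and 4 fell and none rose with ML60218. The share called, 57.1% in each, was near the 56.6% of all genes after the siRNA, against 39% with ML60218. POR itself stood at 0.23 and −0.22.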

How the data were processed

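Messenger RNA of HEK293T cells was measured in 12 libraries, 3 in each of 4 groups taken from the labels (siControl, siPOLR3A, DMSO and ML60218), prepared with a stranded mRNA kit per the labels' protocols. The deposited table held estimated counts (expected counts) and TPM for 194142 transcripts, per the file headers; the program behind them and its version are not given in the sources used here. The submitters' processing notes name hg38, bcl2fastq 2.20, Trim Galore and DESeq2. The design had assumed counts per gene. Estimated counts were therefore summed per gene through GENCODE 29 identifiers and rounded to whole numbers; unmatched transcripts, 8.37 to 8.97% of reads, were left out. The deposited TPM values were summed per gene for levels only.

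Groups were compared with edgeR 4.0.16 in R 4.3.3 (quasi-likelihood test, two-sided, TMM scaling, filterByExpr with a minimum count of 10 and a total of 15, Benjamini-Hochberg adjustment over all genes tested, called under 0.05). CPM uses TMM library sizes, and the SE is the size of the log2 fold change over the square root of F. The difference between the effects was a contrast over all 12 libraries. A test on simulated counts recovered 72% of genes changed by 0.5 and 89% of those changed by 1 on the log2 scale in the siRNA design, and 82% and 89% in the ML60218 design. It changed 100 genes by each size, of 15409 and 15446 tested, whereas 56.6% and 39% of genes were called in the data. Recovery with so many genes changed, or of changes under 0.5, was not measured. With 3 libraries against 3, an exact permutation test cannot give a p under 0.1, so none is given. Alternatives were other scalings, filters, DESeq2 1.42.0, a replicate block, an offset for isoform length, unmatched neighbouring transcripts added by a rule, a GC and length trend, and each library left out. Same-numbered libraries did not deviate together (correlations −0.185 to 0.0521 in the siRNA experiment and −0.0402 to 0.112 in the other), so no block was used.

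The members and all lists were chosen with earlier results of these data known. By rule, values in every library are given for members called at 0.3 or more in absolute log2 fold change and for the 3 largest changes in each direction of a comparison; genes of the wider lists are named when called at 0.4 or more, at most 5 per direction, and POLR3A once. MBTPS1, MBTPS2 and POR were named after their values had been seen. A few members just below these sizes are also given by their fold change. One gene of the wider lists is not reported here and is left out of their counts.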

Additional observations from a re-analysis of the deposited data

Results flagged for a closer look

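In 20 of the 29 genes the effect of the siRNA and the effect of ML60218 differed by edgeR's test of the difference itself. The siRNA effect minus the ML60218 effect (log2) was 0.23 for MVK, 0.66 for TM7SF2, 0.36 for LBR, 0.53 for MSMO1, 0.52 for NSDHL and 0.40 for DHCR7 among the synthesis enzymes. It was 0.59 for SCAP, 0.39 for INSIG1, 0.36 for INSIG2 and 1.03 for MYLIP. On the negative side it was −0.36 for PMVK, −0.44 for IDI1, −0.23 for CYP51A1, −0.72 for EBP, −0.27 for SC5D and −0.18 for SREBF2. The genes of transport and export had −0.62 for STARD4, −0.68 for NPC1, −0.61 for ABCA1 and −0.99 for ABCG1. With the GC and length trend removed, MVK stood at 0.05 and was not called, and the values moved by more than 1.5 times to 0.42 for TM7SF2, 0.38 for SCAP, −0.56 for PMVK, −0.13 for CYP51A1 and −0.16 for SC5D, all still called. With the isoform length offset NPC1 stood at −0.39, also called. Across all genes 50.9% were called in this test, and the experiments differ in agent and in time.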

How the results depend on the processing

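No called member changed direction under any alternative. The deposited TPM was not among the alternatives, and on it the ML60218 means of ACAT2 and HMGCS1 were not lower than in DMSO. MSMO1 stood at 81.4 ± 3.43 TPM in DMSO and 81.1 ± 7.45 in ML60218, and the means of the other genes called lower were lower there too. After the siRNA 21 of 23 calls, with ML60218 7 of 14 and for the difference 19 of 20 were kept under all alternatives. Of the members not called, 5 of 6 after the siRNA, 4 of 15 with ML60218 and 6 of 9 for the difference were called under at least 1 alternative. The ML60218 calls kept throughout were HMGCS1, TM7SF2, LBR, NSDHL, HSD17B7, EBP and MYLIP. Replicate numbers did not pair the samples; the replicate block gave 23, 11 and 20 calls, losing LSS (adjusted p 0.0757), STARD4 (0.0552) and ABCA1 (0.0727) with ML60218. The ML60218 count ranged from 9 to 14 with 1 library left out. Scaling moved the median of all genes by at most 0.071. The siRNA median of the 29 was 0.031 under upper quartile scaling, 0.022 with total counts, 0.027 with the isoform length offset and −0.082 after removal of a GC and length trend. The ML60218 median was −0.019 and 0.013 under the first pair, −0.064 without a filter, −0.048 with 1 CPM in 3 libraries, −0.047 with the trend removed, and −0.077 to −0.041 with 1 library left out. The median difference was 0.020 with the isoform offset and −0.036 to 0.021 with 1 library left out. The causes were not tested. Uncalled members that changed sign after the siRNA were FDPS (0.031 with upper quartile, 0.022 with total counts), LSS (0.0087 with upper quartile, 0.027 with the isoform offset), SREBF1 (−0.082 with the trend removed) and FDFT1 (−0.0058 to 0.15 with 1 library left out). With ML60218 upper quartile scaling gave MVK 0.023, SREBF2 0.024 and INSIG1 0.0015, and total counts gave MVK 0.054, MVD 0.031, SREBF2 0.055, SCAP 0.013 and INSIG1 0.033. The isoform offset gave FDFT1 0.017, SREBF2 0.062 and SCAP 0.020. SC5D was −0.0051 without a filter, −0.024 with the isoform offset, −0.00078 with neighbouring transcripts and −0.041 with the trend removed, which also gave MVK 0.036, MVD 0.055 and SQLE −0.0038. With 1 library left out the ML60218 ranges were −0.056 to 0.019 for MVK, −0.023 to 0.028 for SC5D, −0.018 to 0.16 for IDI1, −0.0041 to 0.034 for SQLE and −0.031 to 0.00045 for SREBF2. For the difference, MVD was 0.020 with the isoform offset, HMGCS1 0.064 and LSS −0.085 with the trend removed, and the ranges with 1 library left out were −0.10 to 0.0018 for ACAT2, −0.071 to 0.011 for MVD and −0.12 to 0.021 for SREBF1.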
